A study of Mus musculus with 6 samples.

Results

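CIDE and perilipin proteins sit on the surface of lipid droplets, the organelles in which fat cells keep triglyceride. In all, 10 genes of this surface were followed, chosen by name: the 3 CIDE genes *Cidea*, *Cideb* and *Cidec*, the 5 perilipin genes *Plin1* to *Plin5*, *Bscl2* for seipin and *Hilpda*. They are 10 of the 55401 genes in the count tables, and 9 of the 10 passed the filter on low counts. RNA was sequenced from whole subcutaneous white adipose tissue (scWAT) of male mice aged 8 weeks, 3 in each of 2 genotypes. The control mice carried floxed *Yap* and *Taz* alleles without Cre recombinase (YT-FF), following the study's methods, and the sample labels call them WT. The other mice were Yapfl/fl/Tazfl/fl;AdipoqCre (YT-AKO). Their Cre comes from an *Adipoq* transgene that works in mature adipocytes, so stromal, vascular and immune cells of the tissue are not targeted. All mice were on C57BL/6 and 129 backgrounds, ate normal chow and were kept at room temperature, following the methods.

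A large white adipocyte stores its fat in a single droplet, whereas beige and brown adipocytes hold many small ones. CIDE proteins gather where droplets touch and let neutral lipid pass from the smaller to the larger one. Perilipins coat the droplet and control the access of lipases, and seipin shapes the sites of the endoplasmic reticulum where droplets form. *Cidec* and *Plin1* are typical of white fat, *Cidea* and *Plin5* are well known from brown fat, and *Plin2* coats droplets in many cell types.

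The libraries held 17740987 to 21838493 counted fragments. Values are given as counts, as CPM (counts scaled to a common library size with TMM factors) or as TPM, which also divides by exon length and is the only one of these used to compare genes with each other. In the check of the targeted genes, *Yap1* was lower in the 3 libraries labelled YT-AKO than in YT-FF (log2 fold change -0.98, adjusted p = 0.0179, edgeR). *Wwtr1*, which encodes TAZ, was higher (0.89, adjusted p = 0.0220, edgeR, and 0.0798 with library totals alone), so it went against the label. A count per gene cannot show whether its floxed exons alone were lost. Every direction below follows these labels. The mature adipocyte marker *Adipoq* had 33351 to 40735 counts in each library. YT-AKO 2 stood apart: its TMM factor was 0.777 against 0.954 to 1.16 in the other 5, and counts of 5 mature adipocyte markers summed to 74147 CPM in it, against 30751 and 33119 CPM in YT-AKO 1 and 3. *Cfd*, 1 of the 5 markers, had 827790 counts in YT-AKO 2 against 321727 and 326536 in YT-AKO 1 and 3. In YT-AKO 2, 20501 genes had a count, against 22810 to 24576 in the other 5. Values without YT-AKO 2 are given for part of the results below.

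Of the 9 tested members, 6 were called higher in libraries labelled YT-AKO and 0 lower, at an adjusted p under 0.05 in edgeR's quasi-likelihood test. This rule called 12.6% of the 16807 tested genes higher and 9.01% lower. The members that rose were *Cidea*, *Plin5*, *Plin2*, *Bscl2*, *Hilpda* and *Plin3*, and *Cidec*, *Plin1* and *Plin4* were not called. The median log2 fold change of the 9 was 1.17, beside -0.02 over all tested genes. The same 6 members had 3 YT-AKO values in CPM that all lay above the 3 YT-FF values, which held for 25.7% of all tested genes, while 25.8% had all YT-AKO values below. DESeq2, the tool of the study, also called 6 members higher and 0 lower, where it called 16.2% of genes higher and 12.6% lower. With edgeR thresholds of 0.01 on the adjusted p and 1 on the log2 fold change, which 0.0892% of genes passed upwards, *Cidea* and *Plin5* were called. Without YT-FF 1 or without YT-FF 2, edgeR called 0 members, and the adjusted p of the 6 ran from 0.0708 to 0.132. In these fits it called 0 of all genes higher, with 0 lower without YT-FF 1 and 2 lower without YT-FF 2. Unadjusted p-values under 0.05 were found for 4665 and 4507 of all genes. The loss of calls was thus not particular to the members. All 6 members stayed called when any 1 of the YT-AKO libraries was left out. Rises called over all genes then numbered 2226, 2925 and 1784, with YT-AKO 1, 2 and 3 left out in turn. Falls numbered 1444, 2424 and 895. Leaving out YT-FF 3 kept 4 members, beside 704 rises and 528 falls over all genes. In whole tissue, fewer cells of a type and less RNA per cell cannot be told apart.

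**Figure D1:**
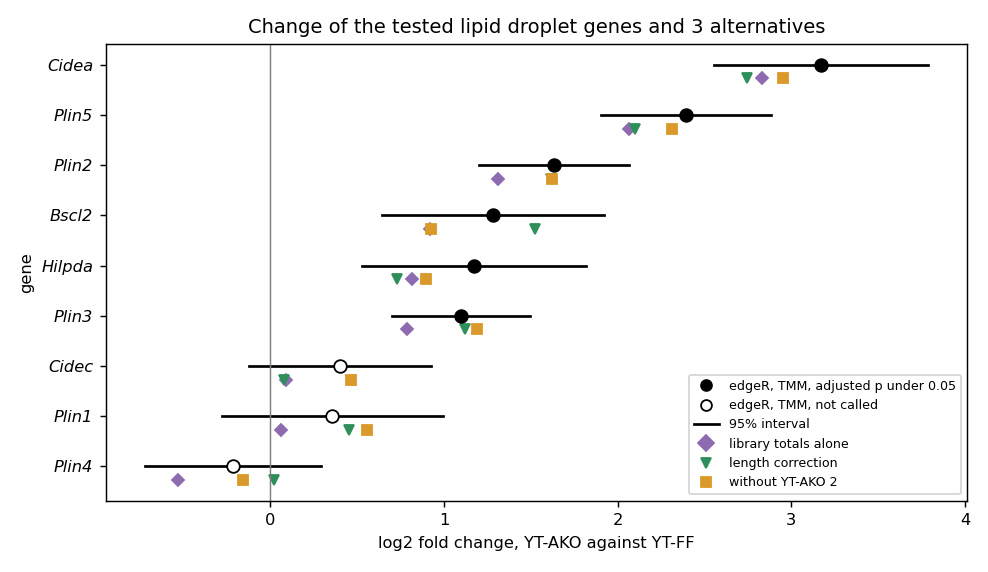
Log2 fold change of the 9 tested members (x axis), libraries labelled YT-AKO over YT-FF, n = 3 per group, with 95% intervals from edgeR; filled circles passed an adjusted p of 0.05. Coloured marks give the value with library totals alone, after a correction for gene length and without YT-AKO 2. *Cidea* and *Plin5* lie farthest to the right under each of them, and *Cidec*, *Plin1* and *Plin4* lie farthest to the left, with *Plin4* just above 0 after the length correction and below 0 otherwise.

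Among the CIDE genes, *Cidea* rose strongly while *Cidec* did not pass the test. *Cidea* (ENSMUSG00000024526) gave 2580, 2671 and 3102 counts in YT-FF 1 to 3, against 17632, 25281 and 16503 in the libraries labelled YT-AKO 1 to 3. The groups were far apart, and YT-AKO 2 was highest. Its fold change was 9.02 (95% interval 5.89 to 13.8; adjusted p = 0.00729, edgeR), and its p-value was the second smallest of all tested genes. Without YT-AKO 2 the log2 fold change was 2.95, and without YT-FF 1 or YT-FF 2, where the adjusted p of edgeR was 0.0790 and 0.0708, it was 3.07 and 3.11.

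*Cidec*, also known as FSP27, promotes the single large droplet of white adipocytes. It lies on chromosome 6, 113424634 to 113435760 of mm10 (ENSMUSG00000030278), and was the most abundant member in YT-FF by TPM. YT-FF 1 to 3 gave 28124, 29832 and 35119 counts of it, against 32945, 29200 and 34788 in the libraries labelled YT-AKO, so the groups overlapped. The log2 fold change was 0.40 (95% interval -0.12 to 0.92; adjusted p = 0.218, edgeR). The interval leaves out a rise as large as that of *Cidea*. In TPM the mean was lower rather than higher in YT-AKO, 2505 ± 764 against 2928 ± 530 (SD, n = 3), so its sign was not the same on both scales.

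*Cideb*, known from the liver, was nearly absent. Only 5, 1 and 8 counts came from YT-FF and 1, 2 and 11 from YT-AKO, and it was not tested. Exons of *Nop9* overlap 76.3% of its exon bases, and fragments over both genes were left out of the counts, so its own level may be understated. It lies on chromosome 14, 55754050 to 55758458 (ENSMUSG00000022219).

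A ratio of 2 genes within a library does not depend on the scaling between libraries. It can still depend on a trend with gene length that differs between libraries, and the ratios and shares were not corrected for one. For 1 transcript of *Cidea*, YT-FF 1 to 3 held 6.55, 6.71 and 6.80 transcripts of *Cidec* by TPM, whereas YT-AKO 1 to 3 held 1.12, 0.694 and 1.27. The 3 control animals thus differed by little, and in YT-AKO 2 *Cidea* exceeded *Cidec*. The ratio of *Cidea* to *Cidec* was 6.72 times as high in the libraries labelled YT-AKO (log2 difference 2.75; two-sided exact permutation test, p = 0.1, the smallest that 3 against 3 allow). Without YT-AKO 2 the log2 difference was 2.49. *Cidea* made up 12.8% to 13.2% of the summed CIDE transcripts in YT-FF and 44.1% to 59.0% in YT-AKO. Summed CIDE transcripts came to 2862 to 4032 TPM in YT-FF and 3969 to 5441 TPM in YT-AKO, which overlapped.

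**Figure D2:**
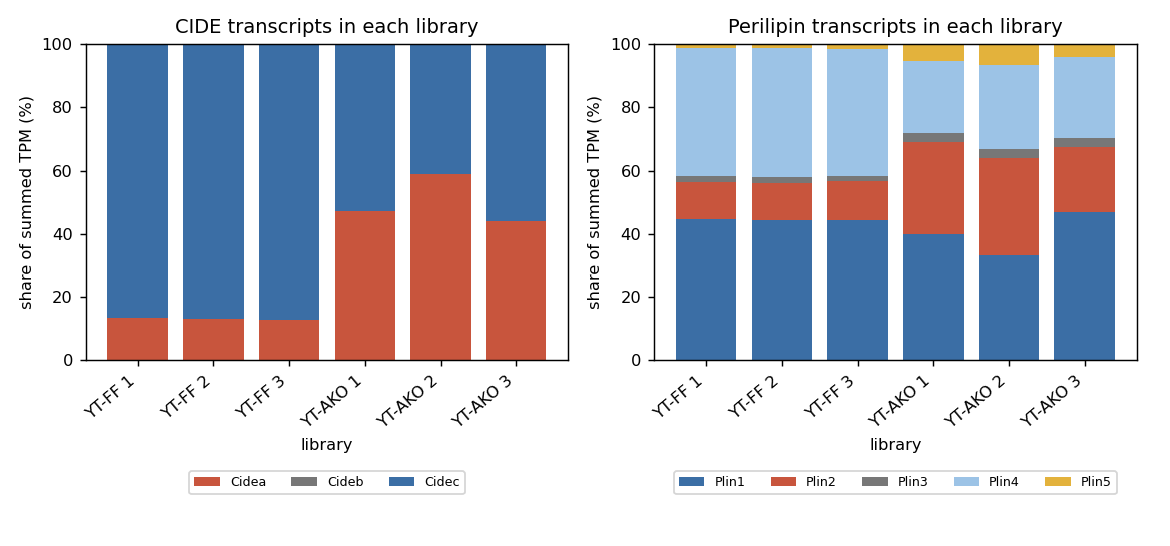
Share of each member in the summed TPM of the 3 CIDE genes (left) and the 5 perilipin genes (right), in percent, for each of the 6 libraries. The YT-FF bars are nearly alike, and in each YT-AKO bar the shares of *Cidea*, *Plin2* and *Plin5* are larger and that of *Plin4* is smaller.

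Perilipin 1 is the main coat of the droplet in mature adipocytes, where it holds back lipolysis until it is phosphorylated by protein kinase A. Its gene *Plin1* (ENSMUSG00000030546) lies on chromosome 7, 79720218 to 79732903. YT-FF libraries gave 34750, 35480 and 35101 counts, and those labelled YT-AKO gave 33006, 24788 and 47903. The YT-AKO values spread to both sides of the controls, with library 2 lowest and library 3 highest. Its log2 fold change was 0.36 (95% interval -0.28 to 0.99; adjusted p = 0.352, edgeR), and in TPM it went from 1317 ± 89.1 to 1119 ± 553 (SD, n = 3). Single libraries decided the log2 fold change, which was 0.55 without YT-AKO 2 (adjusted p = 0.0548, edgeR) and 0.072 without YT-AKO 3. *Plin4*, a long perilipin of adipocytes and muscle, gave 42959, 44630 and 43193 counts in YT-FF against 25786, 26721 and 35641 in YT-AKO. Every YT-AKO count and every YT-AKO TPM was below the controls, but the CPM values overlapped. The log2 fold change of *Plin4* was -0.22 (95% interval -0.72 to 0.29; adjusted p = 0.481, edgeR), -0.53 with library totals alone, a scaling under which the median of all genes was -0.34, and 0.022 after a correction for gene length. Its direction thus turned on the scale and was not set by these data.

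*Plin5*, the perilipin of oxidative tissues that tethers droplets to mitochondria, rose most of the family. Its counts were 428, 484 and 558 for YT-FF, against 2032, 2259 and 1821 for the libraries labelled YT-AKO. The groups were far apart, and the YT-AKO libraries were alike. The fold change was 5.26 (95% interval 3.75 to 7.39; adjusted p = 0.00729, edgeR). *Plin5* and *Plin4* are neighbours on the minus strand of chromosome 17, at 56111601 to 56117596 (ENSMUSG00000011305) and 56100591 to 56109803 (ENSMUSG00000002831), with 1797 bases between them. The ratio of *Plin5* to *Plin4*, chosen after their values were seen, was 6.25 times as high in YT-AKO (log2 difference 2.64; two-sided exact permutation test, p = 0.1). A set of 6 markers of skeletal muscle, a tissue that contains PLIN5 and PLIN4, summed to 3252 CPM in YT-AKO 1 against 116 to 477 CPM in the other 5 libraries. *Plin5* had a log2 fold change of 2.42 without YT-AKO 1, against 2.40 with it. The part of muscle RNA in the *Plin5* result was not tested, in YT-AKO 1 or in the other libraries. Without YT-FF 1 or 2 the adjusted p of *Plin5* was 0.0790 and 0.0708 (edgeR).

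*Plin2*, the coat protein of droplets in many cells and of young droplets in fat cells, gave 6721, 7105 and 7211 counts for YT-FF, against 18213, 17170 and 15837 for the libraries labelled YT-AKO. Its fold change was 3.10 (95% interval 2.30 to 4.18; adjusted p = 0.0146, edgeR; 0.110 without YT-FF 1 and 0.111 without YT-FF 2). *Plin3*, which also exists free in the cytosol and binds to nascent droplets, gave 1302, 1162 and 1104 counts for YT-FF, against 1870, 1724 and 2368 for YT-AKO. Its fold change was 2.14 (95% interval 1.63 to 2.82; adjusted p = 0.0177, edgeR; 0.110 and 0.111 without the same libraries). Both genes were higher in every YT-AKO library in CPM. In TPM *Plin3* of YT-AKO 2, at 47.1, was below the 53.2 to 56.3 of YT-FF. *Plin2* lies on chromosome 4, 86648386 to 86670060 (ENSMUSG00000028494), and *Plin3* on chromosome 17, 56277476 to 56292873 (ENSMUSG00000024197). Macrophages, too, hold PLIN2 when they take up lipid. A set of 8 macrophage markers summed to 383 to 452 CPM in YT-FF and 428 to 527 CPM in YT-AKO, and 2 of them, *Trem2* and *Fcgr1*, were called higher (adjusted p = 0.0311 and 0.0263, edgeR). The part of macrophages in the *Plin2* result was not tested.

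Within the summed perilipin transcripts of a library, the share of *Plin4* was smaller and those of *Plin2*, *Plin3* and *Plin5* larger in YT-AKO. The share of *Plin1* was 44.3% to 44.8% in YT-FF and 33.4% to 47.0% in the libraries labelled YT-AKO, which enclosed the controls. The share of *Plin4* went from 40.1% to 40.8% in YT-FF to between 22.8% and 26.4% in YT-AKO. *Plin2* took 11.5% to 12.1% in YT-FF and 20.6% to 30.6% in YT-AKO, and *Plin5* took 1.23% to 1.58% and 3.98% to 6.78%. *Plin3* took 1.72% to 2.06% and 2.77% to 2.85%. For *Plin2* to *Plin5* the ranges did not overlap, although shares of 1 whole must move together. Against *Plin1* in the same library, *Plin5* was 4.31 times and *Plin2* 2.51 times as high in YT-AKO as in YT-FF (log2 differences 2.11 and 1.33; two-sided exact permutation tests, p = 0.1 each). The lowest log2 differences with 1 library left out were 1.80 and 1.10, both without YT-AKO 2. *Plin4* against *Plin1*, a ratio chosen after the values were seen, was 0.689 times as high (two-sided exact permutation test, p = 0.1). Summed perilipin transcripts were 2736 to 3151 TPM in YT-FF and 1650 to 3523 TPM in YT-AKO.

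The promoter windows of 3 perilipin genes that parted in these libraries are shown to let their letters be compared, *Plin5* and *Plin2* for those that rose and *Plin1* for those not called. Each runs from 250 bases before to 50 bases after the RefSeq start on GRCm38.p6, all on the minus strand, at chr17:56117499-56117798, chr4:86670010-86670309 and chr7:79732727-79733026. Capitals mark every match, on either strand, to AGGTCA (the core site of nuclear receptors such as PPARγ), TTGCNNAA (C/EBP factors), GGAATG (TEAD factors, the DNA-binding partners of YAP and TAZ) or ACGTG (hypoxia-inducible factors).
Plin5: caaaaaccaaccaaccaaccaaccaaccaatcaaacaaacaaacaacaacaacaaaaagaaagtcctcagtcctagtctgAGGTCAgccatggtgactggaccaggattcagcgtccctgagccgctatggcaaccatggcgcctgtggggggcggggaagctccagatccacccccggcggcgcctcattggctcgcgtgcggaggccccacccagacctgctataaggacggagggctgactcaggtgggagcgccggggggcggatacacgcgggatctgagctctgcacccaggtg
Plin2: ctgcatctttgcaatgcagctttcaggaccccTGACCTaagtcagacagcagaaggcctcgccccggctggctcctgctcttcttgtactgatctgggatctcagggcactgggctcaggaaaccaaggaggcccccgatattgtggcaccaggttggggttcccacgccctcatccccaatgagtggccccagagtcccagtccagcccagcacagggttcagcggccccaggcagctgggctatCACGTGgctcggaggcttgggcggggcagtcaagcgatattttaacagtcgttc
Plin1: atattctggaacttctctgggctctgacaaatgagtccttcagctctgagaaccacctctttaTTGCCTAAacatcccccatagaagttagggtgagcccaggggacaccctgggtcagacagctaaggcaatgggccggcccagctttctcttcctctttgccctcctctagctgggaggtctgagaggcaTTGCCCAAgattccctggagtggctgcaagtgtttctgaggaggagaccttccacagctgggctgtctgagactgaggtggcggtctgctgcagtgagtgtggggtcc

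*Plin5* held AGGTCA beginning 170 bases before the start, and *Plin2* held its reverse complement beginning 218 bases before it and the palindrome CACGTG at the start itself, which carries ACGTG on both strands. *Plin1* held TTGCNNAA at 187 and 58 bases before the start. Of all 32851 promoter windows of this length, 16.3% held AGGTCA, 10.8% TTGCNNAA, 14.7% GGAATG and 19.6% ACGTG. In total 9 members had 14 windows between them, and *Cidea* had no window in this set. Of the 14, 4 held AGGTCA (*Plin2*, *Bscl2* and both of *Plin5*) and 2 TTGCNNAA (*Plin1* and *Cidec*). GGAATG was in 1 (*Cidec*) and ACGTG in 2 (*Plin2* and *Hilpda*). None of the 14 held 2 copies of AGGTCA with 1 base between them, the full PPAR element, which was found in 0.0396% of all windows. The split between the genes shown did not hold for all members. *Plin3*, which rose, and *Plin4*, which was not called, matched no motif searched for, and *Hilpda*, which rose, matched only ACGTG. All of these are matches of letters and were not tested as sites.

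*Bscl2* encodes seipin, whose loss causes lipodystrophy. Counts were 4165, 4791 and 4275 for YT-FF and 6354, 12003 and 6799 for the libraries labelled YT-AKO, with YT-AKO 2 far above the others. The fold change was 2.43 (95% interval 1.56 to 3.79; adjusted p = 0.0241, edgeR). Without YT-AKO 2 it remained called, with a log2 fold change of 0.93 in place of 1.28. It was not called without YT-FF 1, 2 or 3 (adjusted p = 0.122, 0.121 and 0.0600, edgeR). Other genes overlap 10.8% of its exon bases on chromosome 19, 8837467 to 8848683 (ENSMUSG00000071657).

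*Hilpda* encodes a small droplet protein that inhibits adipose triglyceride lipase and is induced by hypoxia and fatty acids. Its counts were low, at 147, 123 and 127 in YT-FF and 228, 313 and 159 in the libraries labelled YT-AKO. Every YT-AKO value was above the controls, though YT-AKO 3 only by little. Its fold change was 2.26 (95% interval 1.44 to 3.53, adjusted p = 0.0287, edgeR). Without YT-AKO 2, where it was highest, *Hilpda* remained called (adjusted p = 0.0183, edgeR), with a log2 fold change of 0.90 in place of 1.17. This call was the least stable of the 6: it was lost without YT-FF 1, 2 or 3 (adjusted p = 0.123, 0.132 and 0.0696, edgeR) and after a correction for gene length (adjusted p = 0.0631, log2 fold change 0.73). Of 14 other hypoxia-responsive genes, 1 was called higher and 1 lower, with a median log2 fold change of -0.14. Over all tested genes, 12.6% were called higher and 9.01% lower, with a median of -0.02. *P4ha1*, a collagen prolyl hydroxylase, rose by 1.22 on the log2 scale (adjusted p = 0.0190, edgeR), and *Kdm3a*, a histone demethylase, fell by 0.75 (adjusted p = 0.0340, edgeR). Neither was called without YT-FF 1, 2 or 3, when edgeR called 0 genes of this list, and *Kdm3a* was not called without YT-AKO 3 or after the length correction. With library totals alone 4 genes of the list were called lower, where edgeR called 2828 of all genes lower. *Hilpda* lies on chromosome 6, 29272488 to 29275446 (ENSMUSG00000043421).

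By length-corrected level, the members covered more than 3 orders of magnitude. In YT-FF the order by mean TPM was *Cidec* (2928), *Plin1* (1317), *Plin4* (1197), *Cidea* (437), *Plin2* (349), *Bscl2* (130), *Plin3* (54.6), *Plin5* (41.2), *Hilpda* (20.9) and *Cideb* (0.555). Ranges over the 3 libraries overlapped only between *Plin1* and *Plin4* and between *Cidea* and *Plin2*, and in both pairs the first was higher in 3 of 3 libraries. In YT-AKO the order was *Cidec* (2505), *Cidea* (2428), *Plin1* (1119), *Plin2* (690), *Plin4* (665), *Bscl2* (190), *Plin5* (137), *Plin3* (75.9), *Hilpda* (28.7) and *Cideb* (0.479). *Cidec* and *Cidea* overlapped there, as did *Plin1* with *Plin2* and *Plin2* with *Plin4*. *Cidea* thus moved from rank 277 to rank 38 among all genes by mean TPM, next to *Cidec* at 36, and *Plin5* from 4422 to 1069. TPM has a fixed total in each library, and *Cfd* alone took 827790 counts in YT-AKO 2 against 321727 and 326536 in YT-AKO 1 and 3. Its part in the lower TPM of other genes in YT-AKO 2 was not tested.

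**Figure D3:**
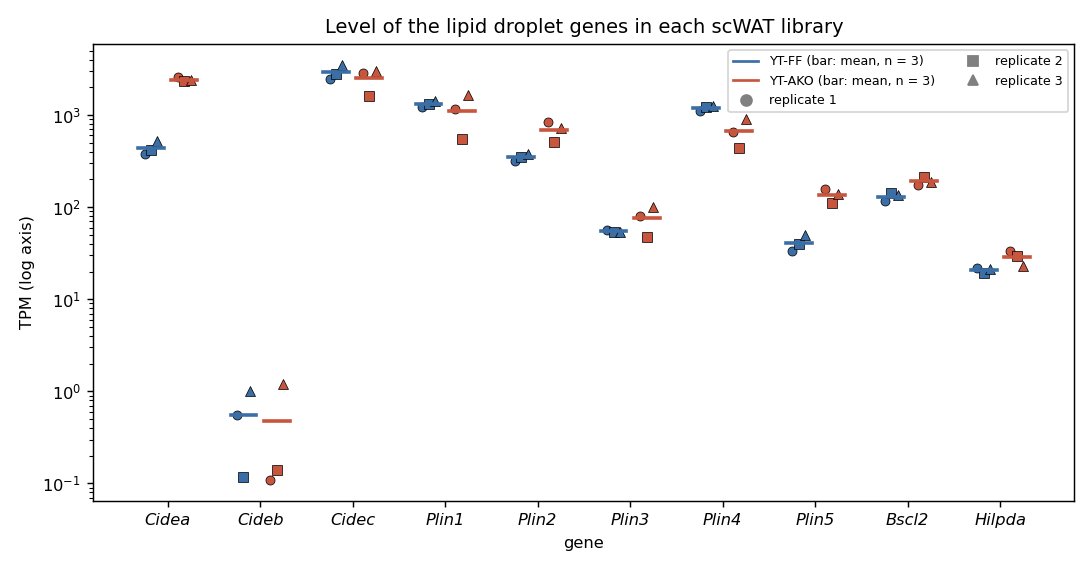
TPM of each member (log y axis) in the 6 libraries; points are libraries, with a shape for each replicate number, and bars are means of 3. *Cidea* and *Plin5* are apart between the groups, *Cidec*, *Plin1* and *Plin3* overlap, and *Plin4* is lower in YT-AKO on this scale although it was not called in the test.

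A further 30 genes of the droplet were listed, among them lipases, their cofactors, enzymes of triglyceride synthesis and droplet-bound trafficking proteins, and 27 were tested. Of these, 6 were called higher in libraries labelled YT-AKO and 0 lower (adjusted p under 0.05, edgeR), with 21 not called, and their median log2 fold change was 0.26. Over all tested genes, 12.6% were called higher and 9.01% lower, with a median of -0.02. *G0s2*, an inhibitor of adipose triglyceride lipase, rose most, from 186 ± 43.8 to 661 ± 153 CPM (SD, n = 3; log2 fold change 1.83, SE 0.258, adjusted p = 0.0166, edgeR). *Ces1d*, a carboxylesterase that hydrolyses triglyceride, and *Lipe*, hormone-sensitive lipase, rose by 0.88 and 0.84 on the log2 scale (adjusted p = 0.0344 and 0.0477, edgeR). The other 3 were *Pnpla2* (adipose triglyceride lipase, 0.79), *Dgat1* (the last step of triglyceride synthesis, 0.68) and *Hsd17b11* (0.47), named after their values were seen. *Abhd5*, the lipase activator that PLIN1 binds, was not called (log2 fold change 0.27, adjusted p = 0.266, edgeR), nor were *Mgll* and *Cav1*. The count fell to 1 with library totals alone, which also turned the median to -0.055, and to 2 after the length correction. Of all genes, edgeR called 1137 higher and 2828 lower with library totals alone, and 1692 and 763 after the length correction. The count of partners was 0 without YT-FF 1 or 2, where 0 of all genes were called higher. It was 1 without YT-FF 3, 2 without YT-AKO 3 and 9 without YT-AKO 2. The matching rises called over all genes numbered 704, 1784 and 2925.

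**Figure D4:**
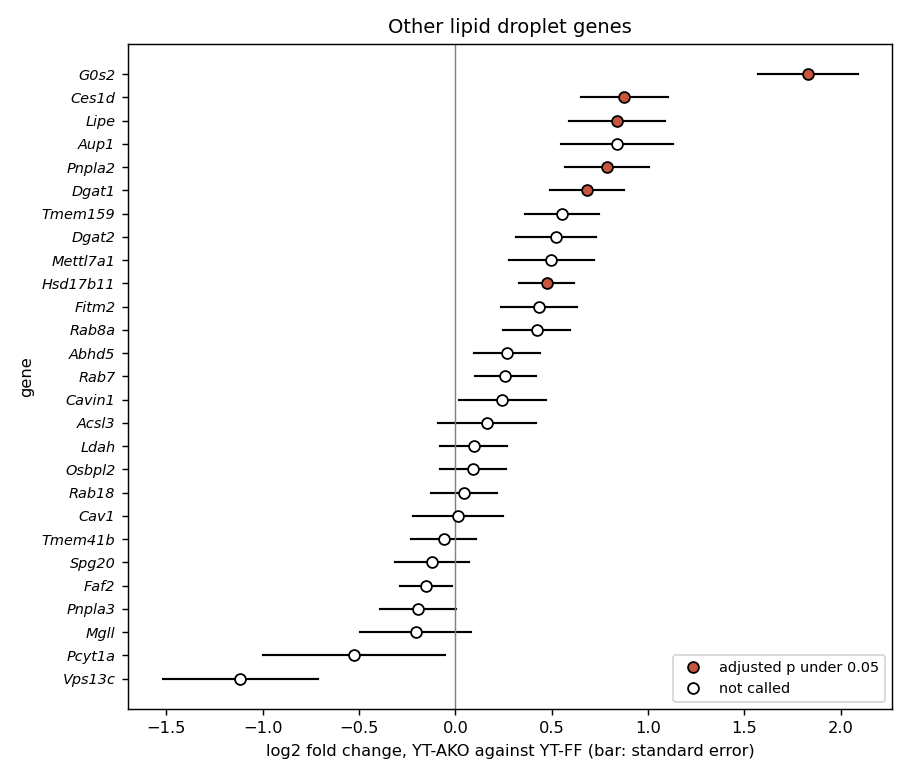
Log2 fold change (x axis) of the 27 tested genes of the droplet list, libraries labelled YT-AKO over YT-FF, n = 3 per group, with the standard error from edgeR as bars; filled points passed an adjusted p of 0.05. *G0s2* is apart from the rest at 1.83, and most others lie within 1 of 0.

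Other lists give the setting in which the members moved. Their counts stand beside 12.6% of all tested genes called higher and 9.01% called lower. Of 12 thermogenic genes, 8 were called higher and 0 lower, with a median log2 fold change of 2.39, and *Elovl3*, *Ucp1* and *Cox8b* rose most (5.90, 5.27 and 4.56). *Elovl3* had only 2, 8 and 6 counts in YT-FF, against 493, 176 and 104 in YT-AKO, so its value rests on a very low base. *Cox8b* had 25886 counts in YT-AKO 2, against 6233 and 7916 in YT-AKO 1 and 3. Among 14 adipocyte identity genes, 4 were higher and 0 lower, led by *Cfd*, which encodes adipsin (2.39), *Gpd1* (1.40) and *Fabp4* (1.34), with a list median of 0.39. Of 16 transcription regulators of fat, 3 rose, namely *Cebpb* (1.86), *Nr1h3*, which encodes LXRα (1.06), and *Esrra* (0.61), and the median of the list was near 0 (-0.0048). All 3 lists lost every call without YT-FF 1 and without YT-FF 2, where edgeR called 0 of all genes higher. For the adipocyte identity genes, library totals alone gave 2 calls higher and 1 lower, with a median of 0.078, and 2 were higher after the length correction and without YT-FF 3.

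The genes nearest to *Cidea* in their profile over the 6 libraries, by the root mean square difference of centred log2 CPM among 10336 genes, were *Pon1* (0.221), *Chchd10* (0.321) and *Hspb1* (0.353). *Pon1*, a secreted esterase, had 7.76 to 11.7 CPM in YT-FF and 75.2 to 133 CPM in the libraries labelled YT-AKO, with YT-AKO 2 highest as for *Cidea*. Nearest to *Cidec* were *Cpped1* (0.0404), *Apln* (0.0506) and *Sardh* (0.0568). *Apln* encodes the adipokine apelin, at 8.31 to 12.5 CPM in YT-FF and 12.3 to 15.7 CPM in YT-AKO.

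Markers of other cells were measured beside these results. Their calls, too, stand beside 12.6% of all tested genes called higher and 9.01% called lower. The brown depot marker *Zic1* was at 0 counts in all 6 libraries and *Lhx8* had 41 to 147 counts, with no separation of the groups. Of 6 skeletal muscle markers, only *Acta1* was called (higher), and of 6 B cell markers 3 were called lower, with sums of 963 to 1113 CPM in YT-FF and 570 to 926 CPM in the libraries labelled YT-AKO. Fibroblast markers had 2 calls higher and 1 lower of 6, endothelial markers 1 lower of 6, T cell markers 1 lower of 6, and Schwann cell markers 0 of 4. Epithelial markers summed to only 3.66 to 5.10 CPM, with *Krt5* at 0. Of 5 mature adipocyte markers, 2 were called higher, and the 5 summed to 12039 to 15814 CPM in YT-FF and 30751 to 74147 CPM in YT-AKO. Mean CPM went from 5538 to 28940 for *Cfd* and from 5205 to 13197 for *Fabp4*. *Adipoq*, *Lep* and *Retn* were not called, with log2 fold changes of 0.43, -0.13 and 1.24, so the sum does not stand for each marker. The part of these shifts in the members' changes was not tested.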

How the data were processed

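Whole scWAT of 6 mice, 3 per genotype, was the source of RNA. The authors aligned read pairs with HISAT2 to mm10, and fragments were counted on exons of GENCODE vM25 genes with featureCounts 2.0.1, without strand and leaving out fragments of several places or genes. The deposited values are raw counts per gene. Symbols were matched by identifier for 55141 of 55401 genes. Total counts were 17740987 to 21838493 per library. Intervals on fold changes rest on the spread between libraries, moderated by edgeR over all tested genes. Standard errors were derived from the log2 fold change and the F value of the quasi-likelihood test. Intervals used a t quantile at the total degrees of freedom of that test (median 7.8).

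Counts were tested in R 4.3.3 with edgeR 4.0.16 (TMM, filterByExpr with a minimum count of 10 and total of 15, quasi-likelihood test, no block) and Benjamini-Hochberg adjustment over 16807 genes. DESeq2 1.42.0, limma-voom (limma 3.58.1), other normalizations and filters, robust estimation, blocking on the replicate number, a spline on gene length (6 degrees of freedom in each library) and each library left out were alternatives. Ratios used two-sided exact permutation tests. The tests were tried on simulated counts with 200 changed genes. edgeR recovered 180 of them with 9 false calls, DESeq2 185 with 30 and limma-voom 181 with 5. The simulation held no library that stood apart and no trend with gene length, so it cannot speak for these features of the data. Promoter windows are from RefSeq, and protein sequences were not compared here. Members and lists were chosen with earlier results of these data known. Named were all members, the targeted genes, up to 3 largest rises and falls per list (adjusted p under 0.05, mean of at least 1 CPM), and the 3 most similar genes (mean of at least 10 CPM) for the member of smallest p and the most abundant member. That the replicates were separate mice comes from the study's methods.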

Additional observations from a re-analysis of the deposited data

How the results depend on the processing

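In the fits to counts, direction held for *Cidea*, *Cidec*, *Plin1*, *Plin2*, *Plin3*, *Plin5*, *Bscl2* and *Hilpda* under all 16 alternatives. For *Cidec* and *Plin1* the log2 fold change was only 0.091 and 0.063 with library totals alone, and their mean TPM was lower in YT-AKO. *Plin4* turned from -0.22 to 0.022 with the length correction and to 0.013 with it and the replicate block together. The count of members called higher was 6, with 0 lower, under DESeq2, limma-voom, upper-quartile scaling, library totals, no filter, at least 10 counts in every library and robust estimation. It was 5 with the length correction, 2 at the stricter threshold, and 0 to 6 with 1 library left out. Of all genes, DESeq2 called 2881 higher and 2244 lower, limma-voom 1986 and 1647, and upper-quartile scaling 1966 and 1674. With no filter 2592 and 1759 of 30027 genes were called, and with at least 10 counts in every library 2138 and 1733 of 14487. Robust estimation called 2116 and 1493. The count of droplet partners called higher went from 6 to 1 with library totals, 2 with the length correction, 0 at the stricter threshold and 0 to 9 with 1 library left out. Partners called lower went from 0 to 1 with DESeq2 and with no filter, and were 0 to 1 with 1 library left out; their median turned to -0.055 with library totals.

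The labels do not say whether replicate numbers pair the mice. Deviations of YT-FF and YT-AKO libraries of number 1, 2 and 3 correlated at 0.179, -0.222 and -0.136 across genes. Between libraries of unlike number the values ran from -0.227 to 0.238. Deviations from a mean of 3 libraries are tied to each other, so these values cannot decide it. With the block and the length correction, 3 members and 0 partners were called higher, where edgeR called 59 of all genes higher and 22 lower. With the number as a replicate block alone, 2 members (*Cidea* and *Plin5*) and 0 partners were called higher, where edgeR called 24 of all genes higher and 9 lower. In that fit 1 thermogenic gene was called higher, and 0 regulators, 0 identity genes and 0 hypoxia-responsive genes were called. DESeq2, at least 10 counts in every library, and leaving out YT-AKO 1 or 2 each gave 1 identity gene lower. Log2 ratios are the same by construction with raw counts or the block, and moved between 2.49 and 2.92 for *Cidea* to *Cidec*, 1.80 and 2.43 for *Plin5* to *Plin1*, 1.10 and 1.63 for *Plin2* to *Plin1*, -0.70 and -0.44 for *Plin4* to *Plin1* and 2.51 and 2.87 for *Plin5* to *Plin4* with 1 library left out; the last 2 ratios were chosen after seeing the data. The paired exact test of these ratios cannot go below 0.25. The median of the transcription regulators turned to 0.20 with the length correction, 0.21 with it and the replicate block, 0.072 without YT-FF 1 and 0.097 without YT-AKO 2 (-0.11 to 0.10 with 1 library left out), and that of the hypoxia-responsive genes to 0.068 without YT-FF 3 (-0.26 to 0.068). The cause of these shifts was not tested. Across genes, which are not replicates, Spearman's rho of log2 fold change with log2 gene length was -0.376, and -0.283 without YT-AKO 2.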
